A study of Arabidopsis thaliana with 6 samples.

Results

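The nuclear genes for photosystem subunits, light-harvesting antenna proteins and Rubisco were compared between Arabidopsis thaliana seedlings that overexpress sORF2146 and seedlings that carry an empty vector. The genes were taken from a list of 47 locus identifiers, and every array probe that is not a control and whose systematic name holds one of them was used. Each of the 47 loci had 1 probe, among 35475 gene identifiers on the array. They comprised 6 LHCA genes, 7 genes for LHCII antenna proteins, 5 minor LHCB genes, 12 photosystem I genes, 10 photosystem II genes, both ELIP genes, and 5 genes for the Rubisco small subunit and Rubisco activase. Of these, 46 passed a filter on dim probes, and PSAL did not.

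Both groups were transgenic seedlings harvested at 14 days, grown on solid MS medium of reduced strength in long days, with 14 hours light and 10 hours dark. One group is labelled sORF2146ox and the other is labelled as carrying the empty pMDC32 vector, with 3 biological replicates each. The labels give neither the accession of the plants nor the number of independent transgenic lines, and the vector that carries sORF2146 is not named. Whole seedlings were extracted, so fewer cells of a type and less RNA per cell cannot be told apart. The series title links sORF2146 to mitochondria and flowering.

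Photosystem I and photosystem II are the protein complexes of the thylakoid membrane that turn light into electron flow. Their core proteins are made in the plastid, while some of the other subunits and all the chlorophyll-binding antenna proteins are encoded in the nucleus. The antenna proteins are LHCA for photosystem I and LHCB for photosystem II. The Rubisco small subunit, RBCS, is also nuclear, and RCA is the activase that keeps Rubisco active. Most of these genes are among the most strongly transcribed in green leaves, whereas the early light-induced proteins ELIP1 and ELIP2, distant relatives of the antenna proteins, are known for rising under light stress and during greening.

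Signals are given as log2 processed signal minus the 75th percentile of the same array, called scaled log2 below, and differences are overexpressor minus vector control on that scale. The share of probes well above background was 66.6%, 65.3% and 65.5% on the overexpressor arrays and 68.8%, 67.5% and 67.4% on the control arrays. No spot was saturated. The 75th percentile itself was 9.96, 9.67 and 9.84 in log2 units in the overexpressor and 10.19, 10.12 and 10.10 in the control. These did not overlap and differed by -0.31, and the scaling takes this difference out of every gene. The overexpressor arrays lay on one slide and the control arrays on another, and the effects of slide and genotype cannot be told apart. Over all 23394 genes tested with limma, 5.17% passed an adjusted p of 0.05, with 587 higher and 623 lower. That split was 784 and 492 with quantile normalization, 1997 and 694 with median scaling and 101 and 1843 with spike-in scaling. Correlations between arrays ranged from 0.969 to 0.989 among the controls and from 0.988 to 0.994 among the overexpressors.

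Of the 46 genes tested, ELIP1 and ELIP2 fell and LHCA2 and LHCA6 rose, and the other 42 did not pass. That is 8.7% against the background of 5.17%, and a share this near the background is no result about the set. The median difference over the 46 genes was 0.02, next to 0.03 over all genes tested. It was below 0 in 6 of 18 alternatives, among them those without sORF2146ox replicate 1 or without sORF2146ox replicate 2, and ranged from -0.25 to 0.11. All 4 calls were lost when any overexpressor array or vector control replicate 2 was left out, and 3 of them were kept without vector control replicate 1 or without vector control replicate 3. With normexp background correction, or with the replicate number as a block, 0 of the 46 passed by limma. The overexpressor arrays lay above all control arrays for 13 of the 46 and below them for 6, where 40.6% of all genes tested showed no overlap in either direction.

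ELIP2 (AT4G14690, chromosome 4) had the largest difference in the set. Its scaled log2 signal was -0.67, -0.52 and -0.13 in the overexpressor arrays and 0.87, 1.63 and 1.98 in the control arrays. The groups did not overlap, and the lowest control array was vector control replicate 1. ELIP2 fell by 1.93 in log2 units, with an SE of 0.31 over 3 arrays a group and a limma adjusted p = 0.0365, which is a 3.82-fold lower signal. Its 95% interval ran from -2.69 to -1.17.

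ELIP1 (AT3G22840, chromosome 3) was a dimmer probe with the same direction. Its processed signal was 35.0, 37.2 and 39.9 in the overexpressor arrays and 140.7, 105.8 and 128.8 in the control arrays. All 6 spots were well above background, and the groups did not overlap. ELIP1 fell by 1.42 (SE 0.15, limma adjusted p = 0.0194), a 2.68-fold lower signal, with a 95% interval from -1.78 to -1.06. With background subtraction and an offset of 50 the difference of ELIP1 was -0.58 (limma adjusted p = 0.0387), and with normexp it was -0.50 (limma adjusted p = 0.67). Over all genes tested, 383 had a difference as low as that of ELIP2 and 655 one as low as that of ELIP1.

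**Figure D1:**
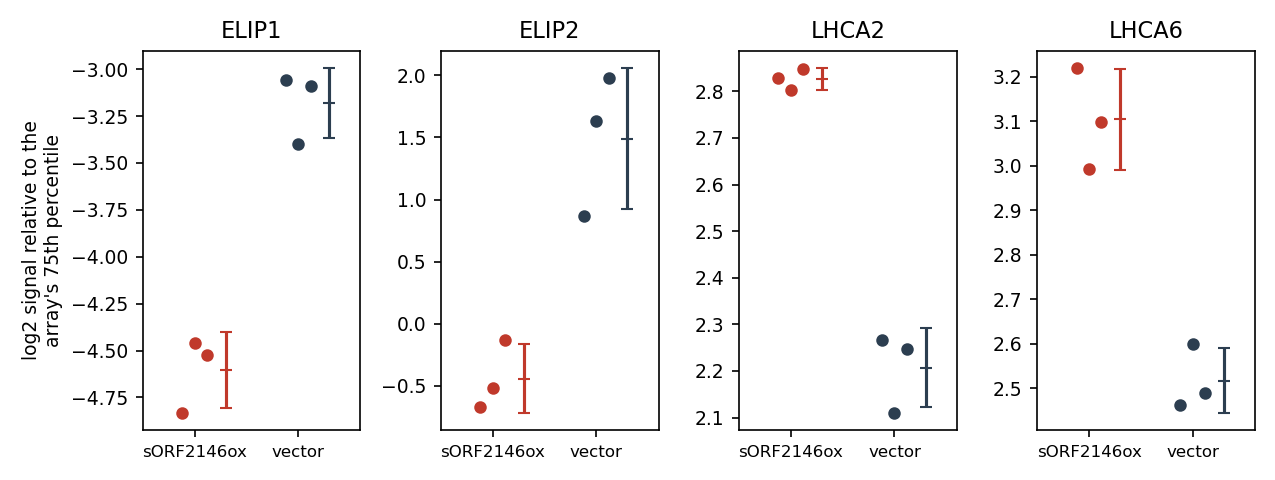
Scaled log2 signal of ELIP1, ELIP2, LHCA2 and LHCA6 (vertical axes, each with its own range) in the 3 sORF2146ox and the 3 vector control arrays. Points are arrays in the order of their replicate numbers, and the bars give mean and SD. In each panel the groups do not overlap, and ELIP2 has the widest control spread, with an SD of 0.57.

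Among the LHCA genes, which encode the antenna of photosystem I, LHCA2 and LHCA6 were higher in the overexpressor and the other 4 did not pass. Over all genes tested 2.51% were called higher, 1146 had a difference as high as that of LHCA2 and 1302 one as high as that of LHCA6. The median difference of the 6 LHCA genes was 0.35, and 0.08 with spike-in scaling. Without 1 array it ranged from 0.32 to 0.37. LHCA2 (AT3G61470, chromosome 3), one of the main antenna proteins, had scaled log2 signals of 2.83, 2.80 and 2.85 in the overexpressor and of 2.27, 2.11 and 2.25 in the control. The overexpressor arrays lay within an SD of 0.02. LHCA2 rose by 0.62 (SE 0.08, limma adjusted p = 0.0270), or 1.54-fold.

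LHCA6 (AT1G19150, chromosome 1), a low-abundance antenna protein that helps to attach photosystem I to the plastid NAD(P)H dehydrogenase-like complex, had signals of 3.22, 2.99 and 3.10 in the overexpressor and of 2.46, 2.60 and 2.49 in the control. It rose by 0.59 (SE 0.09, limma adjusted p = 0.0357), or 1.5-fold. Without vector control replicate 1 the adjusted p of LHCA6 was 0.0503, and without vector control replicate 3 it was 0.0555.

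LHCA5, the other low-abundance antenna protein with a role at that complex, differed by 0.36 (limma adjusted p = 0.11), and LHCA3 by 0.34 (limma adjusted p = 0.0694). Neither passed. In both the overexpressor arrays were all above the control arrays, as they were for 23.1% of all genes tested. LHCA1 and LHCA4, which pair with each other in the antenna belt, differed by -0.01 and -0.05, with 95% intervals from -0.30 to 0.29 and from -0.25 to 0.15. The probes of LHCA1 and LHCA4 were also the brightest of the 6, with a mean log2 signal before scaling of 15.95 and 16.7, against 12.5 to 13.3 for the other 4.

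**Figure D2:**
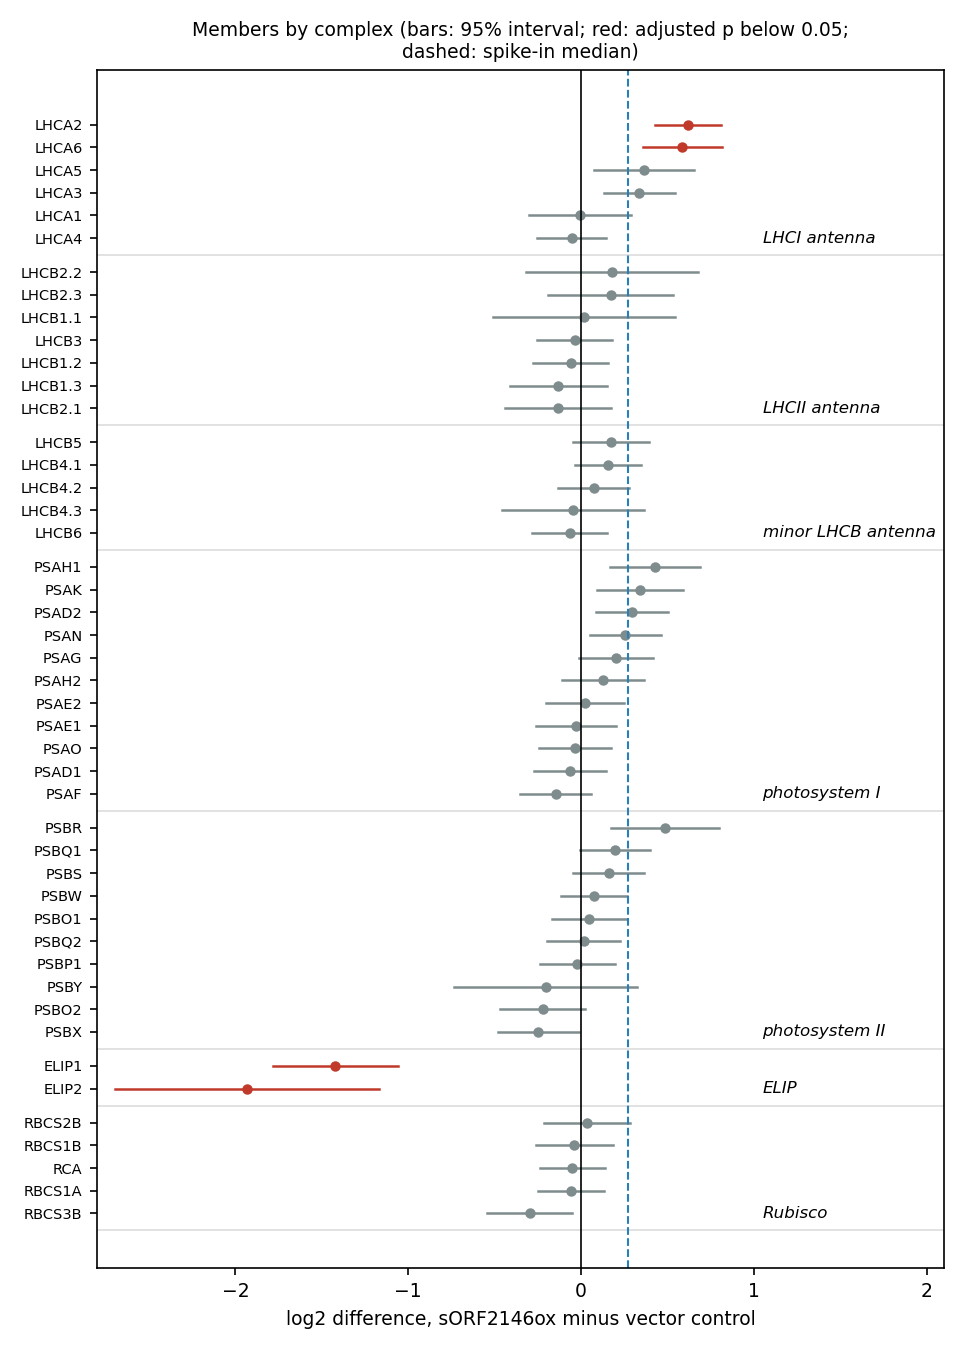
Log2 difference (horizontal axis, sORF2146ox minus vector control) of the 46 genes tested, grouped by complex. Points are estimates, bars are 95% intervals of limma, red marks the 4 genes with an adjusted p below 0.05, and the dashed line is the spike-in median of 0.27. Apart from ELIP1 and ELIP2, every estimate lies between -0.30 and 0.62.

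In LHCII, the trimeric antenna of photosystem II, 0 of 7 genes passed. The median difference was -0.04 and turned to 0.06 with median scaling and to -0.31 with spike-in scaling. Without 1 array it ranged from -0.10, without sORF2146ox replicate 1, to -0.0032, without sORF2146ox replicate 3. LHCB2.2 had scaled log2 signals of -1.63, -2.40 and -1.89 in the overexpressor and of -2.07, -2.25 and -2.13 in the control, and it differed by 0.18 (limma adjusted p = 0.57). LHCB2.3 had signals of 5.93, 5.77 and 5.55 in the overexpressor and of 5.39, 5.78 and 5.57 in the control, a difference of 0.17 (limma adjusted p = 0.46). In both genes the groups overlapped.

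The remaining LHCII genes lay between -0.13, for LHCB1.3 and LHCB2.1, and 0.02, for LHCB1.1. LHCB1.2 differed by -0.06, and LHCB3, which encodes the third kind of subunit in the trimers, by -0.04 with a 95% interval from -0.25 to 0.18. LHCB1.1, LHCB1.2 and LHCB1.3 are direct neighbours on chromosome 1 in the gene table, as are LHCB2.1 and LHCB2.2 on chromosome 2. Their transcripts are closely alike, and the probe sequences were not available for a check of shared binding, so values of single LHCB1 and LHCB2 genes are uncertain.

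The minor LHCB proteins are single antenna subunits between the LHCII trimers and the photosystem II core, and 0 of 5 passed. LHCB5, or CP26, had signals of 6.12, 6.11 and 5.97 in the overexpressor and of 5.80, 5.89 and 5.99 in the control, which overlapped, and differed by 0.17 (limma adjusted p = 0.24). LHCB4.1, one of the CP29 genes, had 6.02, 5.98 and 5.87 against 5.85, 5.79 and 5.77, and differed by 0.16 (limma adjusted p = 0.23) with groups that did not overlap. LHCB4.2, LHCB4.3 and LHCB6, or CP24, differed by 0.07, -0.05 and -0.07.

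Of 11 photosystem I subunit genes tested, 0 passed, with a median difference of 0.13 that became -0.14 with spike-in scaling. With normexp the median was 0.04. Leaving out vector control replicate 1 gave 0.04, and leaving out vector control replicate 3 gave 0.20. The overexpressor arrays lay above all control arrays for 5 of the 11 and below them for 1. Over all genes tested those shares were 23.1% and 17.5%. The 5 were PSAH1, PSAK, PSAD2, PSAN and PSAG.

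PSAH1 (AT3G16140) encodes subunit H, where LHCII docks during state transitions. Its signals were 6.45, 6.55 and 6.38 in the overexpressor and 5.86, 6.07 and 6.16 in the control, a difference of 0.43 (SE 0.11, limma adjusted p = 0.0700). PSAK, an antenna-side subunit, had signals of 4.96, 4.68 and 4.75 against 4.38, 4.48 and 4.52, a difference of 0.34 (SE 0.10, limma adjusted p = 0.0927). Both were highest in the overexpressor without overlap, yet neither passed. Of 18 alternatives, PSAH1 passed in 4 and PSAK in 1, that with median scaling.

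PSAD2, one of the genes for the ferredoxin-docking subunit D, differed by 0.297 (limma adjusted p = 0.0868). PSAN, which takes part in docking plastocyanin, differed by 0.26, and PSAG, which anchors the antenna belt, by 0.20. PSAF, the plastocyanin-docking subunit, was the gene whose overexpressor arrays all lay below the control arrays, and it differed by -0.15 (limma adjusted p = 0.28).

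PSAH2 differed by 0.13, PSAE1 by -0.03, PSAE2 by 0.02, PSAD1 by -0.06 and PSAO by -0.04. Subunits E and D lie on the stromal side. PSAL, for the subunit that with subunit H forms the LHCII docking side, was not well above background on any overexpressor array and was so on 2 of 3 control arrays. Its processed signal was 5.72, 4.87 and 5.20 in the overexpressor and 5.65, 11.0 and 8.85 in the control, and no fold is given. Its mean log2 signal before scaling was 2.71, against 14.0 for PSAN, the next dimmest photosystem I gene. Whether the PSAL probe reports its transcript was not tested.

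Of 10 photosystem II genes, 0 passed, with a median difference of 0.03 that became -0.01 with quantile normalization and -0.24 with spike-in scaling. It was -0.02 without sORF2146ox replicate 1 and 0.07 without sORF2146ox replicate 3. PSBR (AT1G79040), a small subunit that stabilizes the oxygen-evolving complex, had signals of 2.04, 1.63 and 1.72 in the overexpressor and of 1.24, 1.33 and 1.36 in the control. It differed by 0.48 (SE 0.13, limma adjusted p = 0.0767). PSBX, a small membrane subunit, had 6.22, 6.25 and 6.01 against 6.36, 6.38 and 6.47, and differed by -0.25 (SE 0.10, limma adjusted p = 0.15). In both the groups did not overlap, in opposite directions.

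The genes of the oxygen-evolving complex on the lumenal side had differences of both signs. PSBO2 differed by -0.22 and PSBO1 by 0.05, PSBQ1 by 0.19 and PSBQ2 by 0.02, and PSBP1 by -0.02. PSBS, the sensor protein of non-photochemical quenching, differed by 0.16 with a 95% interval from -0.05 to 0.37. PSBW and PSBY, small membrane subunits, differed by 0.08 and -0.20. The widest interval of the 10 was that of PSBY, from -0.73 to 0.32.

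For Rubisco, 0 of 5 genes passed, and 4 of 5 had a negative difference. The median of -0.05 became 0.05 with median scaling and -0.32 with spike-in scaling. Without 1 array the Rubisco median ranged from -0.08, without sORF2146ox replicate 1 or vector control replicate 1, to -0.03, without sORF2146ox replicate 3. RBCS3B (AT5G38410) had scaled log2 signals of 5.38, 5.26 and 5.13 in the overexpressor and of 5.45, 5.57 and 5.64 in the control. These did not overlap, and the difference was -0.297 (SE 0.10, limma adjusted p = 0.11). RBCS1A had 7.23, 7.30 and 7.16 against 7.24, 7.31 and 7.32, which overlapped, and differed by -0.06 with a 95% interval from -0.25 to 0.13.

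RBCS1B and RBCS2B differed by -0.04 and 0.03, and RCA, the activase, by -0.05 with a 95% interval from -0.24 to 0.14. RBCS1B, RBCS2B and RBCS3B are direct neighbours on chromosome 5 in the gene table. Their coding regions are near copies, so the probes may share targets, which was not tested.

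Several subunits are encoded by a pair of genes, and the ratio of the pair within an array is free of any scaling between arrays. For 7 such pairs, chosen after the values were seen, the ratio was taken relative to its mean over the 6 arrays. Each ratio is written in the order that makes its difference positive, so the shared sign is no result. The p-values of pairs chosen this way are no support for a difference. PSAD2 over PSAD1 was 0.21, 0.12 and 0.20 in the overexpressor and -0.05, -0.23 and -0.26 in the control, a difference of 0.36 (exact two-sided permutation p = 0.1, adjusted over the 7 pairs 0.23). PSAH1 over PSAH2 was 0.18, 0.18 and 0.09 against -0.20, -0.08 and -0.17, a difference of 0.30 with the same p. PSBO1 over PSBO2 was 0.16, -0.02 and 0.26 against -0.08, -0.20 and -0.12, a difference of 0.27 with the same p.

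In these 3 pairs the groups did not overlap, and 0.1 is the smallest p that 3 against 3 arrays allow, so the threshold could not be reached. The other 4 pairs overlapped. PSBQ1 over PSBQ2 differed by 0.18, LHCB4.1 over LHCB4.2 by 0.08 and PSAE2 over PSAE1 by 0.05. ELIP1 over ELIP2 differed by 0.51 with a control SD of 0.65, since vector control replicate 1 stood at 0.496 and the other controls at -0.61 and -0.65.

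**Figure D3:**
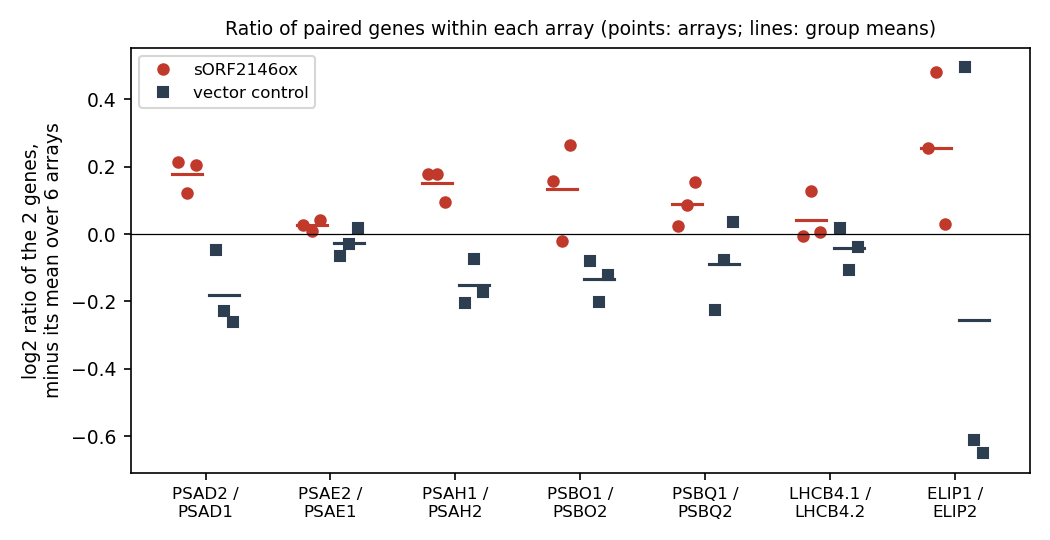
Log2 ratio of paired genes within each array, minus its mean over the 6 arrays (vertical axis), for 7 pairs. Circles are sORF2146ox arrays, squares are vector control arrays and lines are group means. The groups are apart for PSAD2 over PSAD1, PSAH1 over PSAH2 and PSBO1 over PSBO2, where the differences are 0.36, 0.30 and 0.27.

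The brightness of the probes differed widely within the set. Of the 46 genes tested, 30 had a mean log2 signal before scaling of 15 or more, and 0 of these passed. Over all genes that bright, 2 of 348 passed, or 0.575%. The 4 genes that passed were among the 16 dimmer members, a share of 25%. Over all genes tested, the brightness bins below 15 had from 2.67% to 7.47% called. Whether these shares differ was not tested. The interquartile range of all differences ran from -0.11 to 0.09 at 16 or more, from -0.12 to 0.23 between 12 and 14, and from -0.29 to 0.26 between 6 and 8. Whether the range of very bright spots was compressed was not tested.

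The E1A probes of the array, which are made to report spike-in RNA, gave the reference for small shifts. The labels do not state how much spike-in was added. The median of the 8 spike-in probes above background was 0.89, 1.4 and 1.35 in the overexpressor and 0.96, 0.97 and 0.89 in the control after scaling, a difference of 0.27 (exact two-sided permutation p = 0.4). Before scaling the difference was -0.04 (exact two-sided permutation p = 0.8). After scaling, overexpressor replicates 2 and 3 were high, and replicate 1 lay with the control arrays. The medians before scaling were 10.85, 11.07 and 11.19 in the overexpressor and 11.15, 11.10 and 10.99 in the control. There, overexpressor replicate 1 was the lowest array, and replicates 2 and 3 lay near the control arrays. The 3 brightest spike-in probes, whose mean log2 signals were 14.1, 14.5 and 16.7, differed by -0.08, 0.21 and 0.01, while the 4 dimmest differed by 0.28 to 0.36.

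Scaled to the 75th percentile, LHCA2 at 0.62 and LHCA6 at 0.59 lay above all 8 spike-in probes, the highest of which differed by 0.36. Centring on the spike-ins carries their spread over the arrays into each gene. In the overexpressor the spike-in medians were 0.89, 1.4 and 1.35, while the SD of LHCA2 was 0.02. Set against this reference by such centring, the ELIP calls kept their direction and the LHCA calls did not pass. With each array centred on its spike-ins, ELIP2 differed by -2.20 (limma adjusted p = 0.000474) and ELIP1 by -1.69 (limma adjusted p = 0.000563). LHCA2 differed by 0.35 (limma adjusted p = 0.45) and LHCA6 by 0.32 (limma adjusted p = 0.52). On that scale 8 of the 46 genes had a positive difference, against 24 on the scale of the 75th percentile, and the median was -0.25 for the set and -0.24 for all genes. Positive differences under 0.27 therefore turned negative with this reference, and negative ones became larger.

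**Figure D4:**
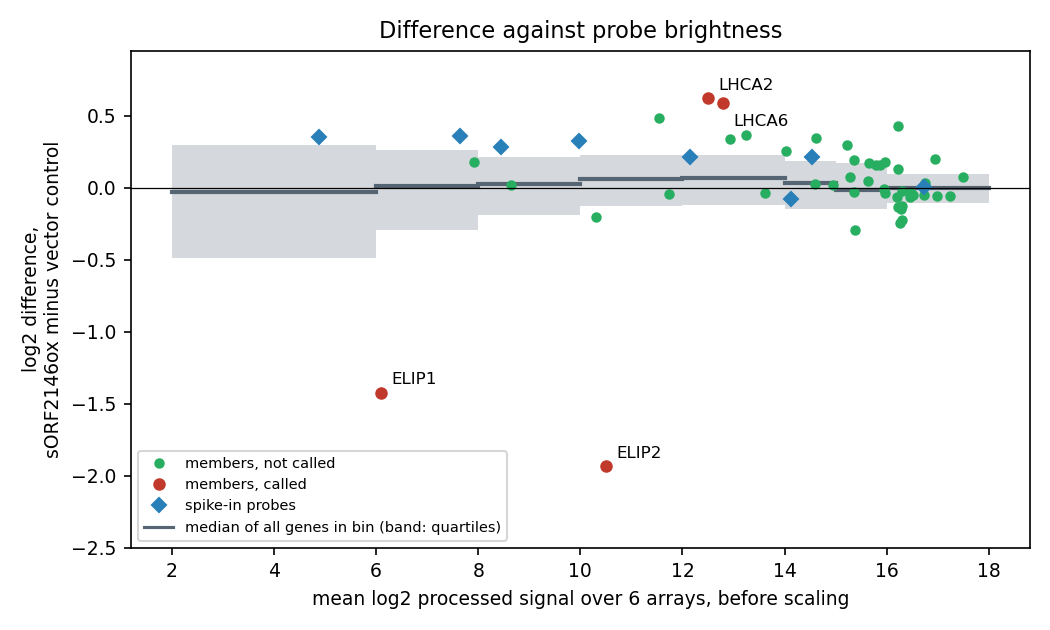
Log2 difference (vertical axis, sORF2146ox minus vector control, scaled to the 75th percentile) against mean log2 processed signal over the 6 arrays before scaling (horizontal axis). Points are the 46 genes tested, diamonds the 8 spike-in probes, grey lines the medians of all genes in a brightness bin and grey bands their interquartile range. The 30 members at 15 or more lie between -0.30 for RBCS3B and 0.43 for PSAH1, and ELIP1 and ELIP2 lie far below the bands.

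The other genes of photosynthesis were read from 7 lists, with 98 of 99 genes tested. Of these 4 rose and 1 fell, next to backgrounds of 2.51% higher and 2.66% lower, and the median difference was 0.10. Spike-in scaling lowers every list median by 0.27, which takes all of them except that of chlorophyll breakdown from above 0 to below it. Among other LHC-type and photosystem genes 1 of 13 rose, with a list median of 0.24. This was LHCB7, a rare member of the antenna family, at 0.54 (SE 0.10, limma adjusted p = 0.0434). Its signals were 1.19, 1.23 and 1.13 in the overexpressor and 0.62, 0.79 and 0.52 in the control.

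In photosynthetic electron transport 1 of 13 rose, with a median of 0.10. PGR5, needed for cyclic electron flow around photosystem I, rose by 0.47 (SE 0.07, limma adjusted p = 0.0346), from 2.80, 2.81 and 2.74 in the control to 3.31, 3.23 and 3.22. In the Calvin cycle 1 of 15 rose, with a median of 0.04. GAPA-2, a plastid glyceraldehyde-3-phosphate dehydrogenase subunit, rose by 0.56, from 3.30, 3.18 and 3.25 in the control to 3.91, 3.71 and 3.78 (SE 0.09, limma adjusted p = 0.0355). Among 10 genes for antenna insertion and photoprotection 1 rose, with a median of 0.20. STN7, the kinase that phosphorylates LHCII in state transitions, rose by 0.40, from 0.57, 0.50 and 0.41 in the control to 0.93, 0.89 and 0.85 (SE 0.08, limma adjusted p = 0.0491). With spike-in scaling LHCB7, PGR5, GAPA-2 and STN7 differed by 0.27, 0.20, 0.29 and 0.13, and none of these 4 passed by limma. All 4 lost the call when any overexpressor array, vector control replicate 2 or vector control replicate 3 was left out, and LHCB7 also without vector control replicate 1.

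Chlorophyll breakdown genes had a median of -0.46, and 1 of 6 fell. PPH, the pheophytinase that removes the phytol tail, fell by 0.58 (SE 0.07, limma adjusted p = 0.0258), with signals of -2.24, -2.29 and -2.28 in the overexpressor and of -1.72, -1.63 and -1.71 in the control. With spike-in scaling PPH differed by -0.85 (limma adjusted p = 0.0438), and without any overexpressor array or vector control replicate 2 it did not pass. None of the 20 chlorophyll biosynthesis genes passed by limma, where the median was 0.08. The smallest adjusted p-values there were those of CHLM, a methyltransferase of the magnesium branch, at 0.41 (limma adjusted p = 0.0608), and PORC, a light-dependent reductase, at 0.21 (limma adjusted p = 0.15).

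Of 21 regulators of photosynthesis genes that were tested, 0 passed, with a median of 0.05. GLK1 and GLK2, the transcription factors that drive antenna and chlorophyll genes, differed by -0.07 and 0.11. HY5, a light-signalling factor upstream of the ELIP genes, differed by 0.05, and its relative HYH by -0.29 (limma adjusted p = 0.12). The 95% interval of HY5 ran from -0.36 to 0.47. The clock genes LHY and CCA1, morning factors that bind antenna gene promoters, differed by -0.14 and -0.26. SIG5, a plastid sigma factor, differed by 0.35 (limma adjusted p = 0.20). The labels give no time of day for the harvest.

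**Figure D5:**
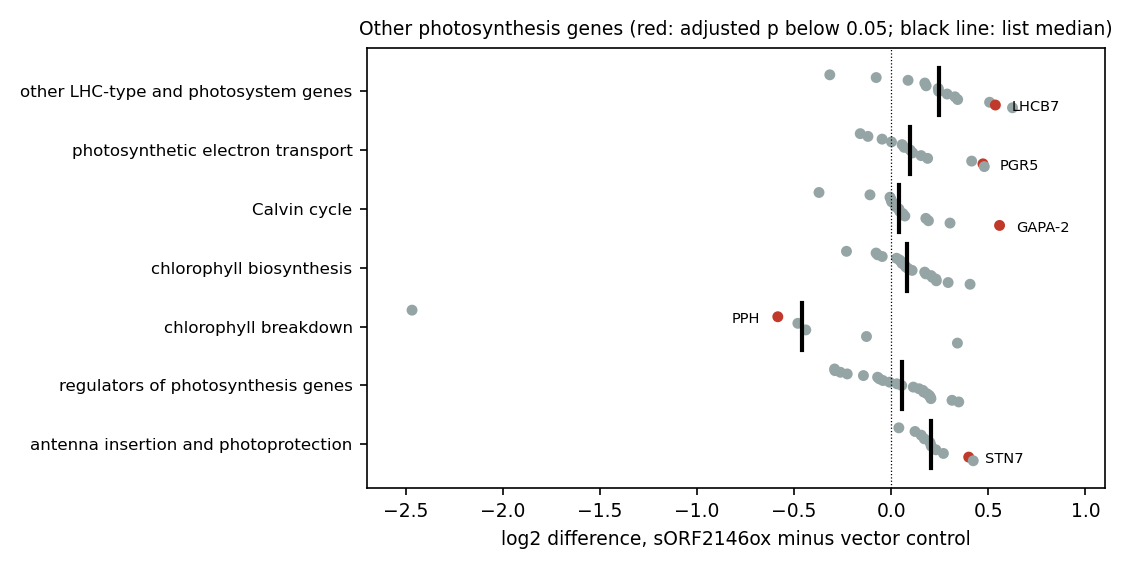
Log2 difference (horizontal axis, sORF2146ox minus vector control) of 98 other photosynthesis genes in 7 lists. Points are genes, red marks the 5 with an adjusted p below 0.05 and black lines are list medians. LHCB7, PGR5, GAPA-2 and STN7 lie to the right of 0 and PPH to the left.

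Markers of other tissues were read beside these results, and their part in the results was not tested. Of the root markers, 9 of 9 were well above background on every array, and 0 of 9 passed by limma. The root list had a median difference of 0.41, with 8 of 9 genes positive and PYK10, a beta-glucosidase gene, at -0.11. Their summed scaled signal ranged from 90.3 to 106.6 in the overexpressor and from 88.3 to 111.5 in the control, and most of each sum came from PYK10, with scaled log2 signals from 6.34 to 6.67. The median deviation of the root list from the mean of the 6 arrays was -0.86 in vector control replicate 1 and between 0.02 and 0.35 in the other 5 arrays. RHD6, a root hair factor, differed by 0.78, and WER, a root epidermis factor, by 0.66, and neither passed.

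Flower markers were dim, with a summed scaled signal from 0.02 to 0.05 in the overexpressor and from 0.03 to 0.18 in the control. AP3, the 1 gene of 3 tested, differed by -1.91 and did not pass by limma. It met the dim filter only through the control arrays, where it was higher, so its difference is no support. Seed markers summed to between 0.03 and 0.06 in the overexpressor and between 0.06 and 1.80 in the control, where EM1 held most of the sum in vector control replicates 1 and 2. EM1, a late embryogenesis gene, was above background on 3 of 3 control arrays and on 0 of 3 overexpressor arrays, and did not pass by limma. EM1 too met the dim filter only through the control arrays, so a test of it is no support. EM6 differed by -0.43. AG and PI were not tested, nor were OLEO1 and CRA1, and CRA1 was not well above background on any array.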

How the data were processed

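Cy3-labelled cRNA from total RNA of 6 seedling samples was hybridised to one-colour Agilent arrays. The deposited scanner files hold spot intensity written by version 11.5.1.1 of Agilent Feature Extraction, as the submitters' processing notes also say. The processed signal had background subtracted and a spatial trend removed array by array, per the file headers, while the raw median intensity and the background median were used for alternatives. The deposited files also carry other columns, flags that are 0 or 1. The deposited table of the series, also intensity, has no method given in the sources used here and served as an alternative.

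Spots with outlier flags were set to missing, log2 values were centred on the 75th percentile of the 35635 probes that are not controls, and probes well above background on all 3 arrays of a group were kept. A gene was represented by its brightest probe. The overexpressor was set against the control by lmFit and eBayes (limma 3.58.1, R 4.3.3) over 23394 genes with Benjamini-Hochberg adjustment, and the method was tested on simulated data. Symbols follow the lists, checked against the RefSeq gene table of TAIR10.1, whose coordinates are not printed because the array design names another build. Figures were drawn with matplotlib 3.10.9. The number of arrays limits the precision.

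The members and lists were chosen with earlier results of these data known. Values in every array are given for the genes called and for the 2 largest differences per complex. From other lists the genes named were those called or, where none was, the 2 with the smallest adjusted p-values, with GLK1, GLK2, HY5, LHY and CCA1 always named, and the uncalled ones are given by their differences. Outside this rule, PSAL is shown as the gene not tested, and NYE2, LHCB1.1, PSBY and the other genes of the closing observations were chosen after their values were seen. The pairs of genes were chosen after the values were seen. Alternatives covered background correction, scaling, the dim filter, probe summary, variance model, the deposited table, a block for replicate number and the removal of single arrays. Slide could not be fitted as a block, because each slide held 1 group. Same-numbered arrays of both groups deviated with correlations of -0.0857, -0.000468 and -0.0226. The labels state no pairing by replicate number, and these correlations cannot exclude it. Sequences are not shown.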

Additional observations from a re-analysis of the deposited data

How the results depend on the processing

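Across 828 combinations of a member and an alternative, 785 kept direction and side of the threshold or were uncalled in both, 31 lost a call, 12 gained one and 0 reversed a called direction. ELIP1 passed in 12 of 18 alternatives, ELIP2 in 11, LHCA2 in 10 and LHCA6 in 8, with ranges from -1.69 to -0.50, from -2.25 to -1.69, from 0.35 to 0.72 and from 0.32 to 0.68. The 2 members called higher were 5 with background subtraction, 7 with median scaling and 4 with trend and robust variance, and 0 with normexp, spike-in scaling or no filter on dim probes. The 12 calls gained were those of PSAH1 in 4 alternatives, LHCA3, PSAD2 and PSBR in 2 each, and LHCA5 and PSAK in 1 each. The 2 called lower were 0 with normexp and 1 without the filter. Leaving out 1 array gave 0 to 1 higher and 0 to 2 lower. Over all genes the 587 higher became 2 with normexp, 1010 with background subtraction, 101 with spike-in scaling, 1997 with median scaling, 55 without the filter and 903 with trend and robust variance, and 8 to 481 without 1 array. The 623 lower became 2, 533, 1843, 694, 132 and 803 in the same order, and 27 to 817 without 1 array. With the replicate block 6 genes were higher and 8 lower, with 0 members in either direction, and the numbers are not known to pair the samples. The cause of these shifts was not tested. Leaving out an array or fitting a block also lowers the number of arrays or residual degrees of freedom, and its part was not tested either. The spike-in difference of 0.27 was -0.0435 without scaling between arrays and 0.18 to 0.43 without 1 array.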

Other observations

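Of the paired genes outside the set, 6 pairs are given first, chosen after their values were seen. GAPA-2 rose by 0.56, while GAPA, for the same subunit, differed by -0.01. PETE1 and PETE2, the plastocyanin genes, differed by 0.41 and -0.12, and neither passed limma. In 4 other pairs both genes had like values and neither was called. OHP1 and OHP2, one-helix relatives of the antenna proteins, differed by 0.34 and 0.29. The phosphoglycerate kinase genes PGK1 and PGK2 differed by 0.04 and 0.02. GSA1 and GSA2 differed by 0.06 and 0.05, and CHLI1 and CHLI2, of magnesium chelatase, by 0.07 and 0.11. Beyond these 6, other pairs were less alike, though none of the genes named next was called. PGRL1A and PGRL1B differed by -0.05 and 0.48, and HEMA1 and HEMA2 by 0.29 and -0.23. CP12-1 and CP12-2 differed by 0.0026 and 0.30, and LIL3:1 and LIL3:2 by 0.51 and 0.17.

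In chlorophyll breakdown, NYE2, a relative of the stay-green gene NYE1, differed by -2.47 (SE 0.62, limma adjusted p = 0.0722), with control signals of -4.18, -2.11 and -1.94 and overexpressor signals of -5.58, -4.90 and -5.15. NYE1 differed by -0.44 and PAO, the pheophorbide oxygenase, by -0.48, while RCCR, of a later step, differed by 0.34. Vector control replicate 1 was the lowest control array for NYE2.

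The overexpressor arrays had the largest SD in LHCB1.1, at 0.42, followed by LHCB2.2, PSBY, ELIP2 and LHCB4.3, at 0.39, 0.36, 0.28 and 0.25. LHCB1.1 stood at -0.93, -1.77 and -1.27 in replicates 1, 2 and 3, and PSBY at 0.51, -0.19 and 0.34. In LHCB1.1, LHCB2.2 and PSBY replicate 1 was highest and replicate 2 lowest, whereas in ELIP2 and LHCB4.3 replicate 1 was lowest and replicate 3 highest. Over the 46 members the median SD among overexpressor arrays was 0.11 and among control arrays 0.07, and over all genes these were 0.12 and 0.17. All genes with a mean log2 signal of 15 or more had 0.09 and 0.09, and the 30 members that bright had 0.10 and 0.06.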
